A study of Mus musculus with 5 samples.

Results

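Of the 11676 Runx3-bound regions of IL-2-activated NKC, 604 lay at an annotated TSS and also overlapped a region marked by H3K4me1. These 604 peaks are called members below. They were chosen by 2 values of the peak lists and the annotation: the peak centre lay less than 1 kb from the TSS of any GENCODE M1 transcript, and at least 1 bp of the peak lay within an H3K4me1 peak. The position and the overlap therefore describe how these regions were chosen and are not findings about them. The 604 peaks made up 5.17% of all Runx3 peaks and 20.5% of the 2950 promoter Runx3 peaks, and the other 2346 promoter peaks did not overlap H3K4me1. A further 5047 Runx3 peaks overlapped H3K4me1 at a distance of 1 kb or more from every TSS and are called distal. These 2 sets served for comparison.

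The cells were splenic natural killer cells of ICR mice, enriched by negative selection, sorted by flow cytometry and fixed after 7 days of growth in IL-2 (1000 units/ml). All groups shared this strain, culture and cytokine, so no untreated or Runx3-deficient cells enter here, and the sources used here give no age of the mice. ChIP-seq was done in 2 libraries with an in-house polyclonal antibody to Runx3, in 1 library with a monoclonal antibody to H3K4me1, and in 2 libraries with non-immune rabbit serum (NIS), the control. The reads of the Runx3 libraries were joined before peaks were called, and the lists hold positions without heights or values per library. All values below therefore lack replicate error, and the depth behind a single peak is unknown. Without H3K4me1 means here that no peak of the mark was called in 1 library. A mark below the limit of calling would be missed. Intervals are 95% Wilson intervals and cover counting error only. Peaks are not replicates of a condition, so p-values compare these lists and not animals.

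Runx3 is a transcription factor of the RUNX family that binds DNA together with its partner CBFb and is a regulator of cytotoxic lymphocytes. The RUNX motif is written here as 4 variants, of which TGTGGT and its counterpart ending in C, which is TGTGGC, hold no CpG dinucleotide. The others, TGCGGT and again its counterpart ending in C, which is TGCGGC, hold a CpG. Monomethylation of histone H3 at lysine 4 (H3K4me1) is typical of enhancers and of the flanks of active promoters, while the nucleosomes next to an active TSS usually carry the trimethylated form. Many mammalian promoters, those of housekeeping genes above all, lie in CpG islands, stretches that have kept their CpG dinucleotides, whereas many tissue-restricted genes start in CpG-poor sequence.

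The sequences below show the RUNX motif nearest the peak centre in 1 member of each immune gene list, the member with the longest H3K4me1 overlap that held a motif in its central 200 bp. They are given in mm9, 5′ to 3′ on the strand of the motif, with the motif in capitals, and are 66 bases long or, where an annotated untranslated region lies in that window, 30 bases.
Cd244 (chr1:173489437-173489466, plus strand, first exon): tctgctctgtccTGTGGTgatgttggggca
Gzmb (chr14:56881170-56881235, minus strand, upstream of the gene): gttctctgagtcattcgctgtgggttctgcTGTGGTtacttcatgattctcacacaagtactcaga
Tnfsf14 (chr17:57333551-57333580, minus strand, exonic): gtgttgggcaatTGTGGTttcctccggaga
Ifngr2 (chr16:91546500-91546565, minus strand, upstream of the gene): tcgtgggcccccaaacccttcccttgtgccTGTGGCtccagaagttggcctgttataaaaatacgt
Tox2 (chr2:163029335-163029400, minus strand, intronic): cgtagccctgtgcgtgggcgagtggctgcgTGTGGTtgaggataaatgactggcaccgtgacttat
Cd7 (chr11:120901081-120901146, plus strand, upstream of Cd7 and within an intron of Gm11775): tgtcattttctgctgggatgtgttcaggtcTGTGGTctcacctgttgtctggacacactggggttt
Itgb7 (chr15:102061540-102061605, plus strand, intronic): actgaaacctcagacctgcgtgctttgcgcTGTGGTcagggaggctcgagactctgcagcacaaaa
Traf2 (chr2:25394582-25394611, minus strand, exonic): tttttagggcttTGTGGTgtgtgggggttg

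For comparison, these are the motifs of the 4 promoter peaks without H3K4me1 of listed immune genes that lay nearest to a gene start and held a motif.
Sh2d2a (chr3:87650548-87650613, plus strand, upstream of the gene): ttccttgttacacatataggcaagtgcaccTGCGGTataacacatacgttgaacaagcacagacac
Ncr1 (chr7:4289246-4289311, minus strand, upstream of the gene): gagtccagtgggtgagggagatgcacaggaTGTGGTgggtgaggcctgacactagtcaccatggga
Fcer1g (chr1:173164454-173164483, minus strand, exonic): gaaggagggaacTGTGGTcagggaactgtt
Traf5 (chr1:193916477-193916542, plus strand, upstream of the gene and within an intron of Gm16621): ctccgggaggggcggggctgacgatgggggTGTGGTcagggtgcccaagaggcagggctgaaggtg

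A motif was required of each site in both sets. These 12 sites were chosen by rule as illustrations, so they are not a measure of how often a variant occurred. The nearest H3K4me1 peak lay 65 bp from the Runx3 peak at Fcer1g, which encodes the signalling chain of Fc receptors. It lay 1781 bp away at Sh2d2a, 11753 bp away at Traf5 and 12349 bp away at Ncr1, the gene of the activating receptor NKp46.

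Fewer than 1 in 2 of the 604 peaks lay at the start of a protein-coding gene. The first TSS of a protein-coding gene lay within 1 kb of the centre in 260 of them, or 43.0% (39.2 to 47.0), against 1964 of the 2346 promoter peaks without H3K4me1, or 83.7% (82.2 to 85.2). The odds ratio was 0.147 and the adjusted p was 2.07e-84 (Fisher's exact test, two-sided, Benjamini-Hochberg over 7 single comparisons). The other H3K4me1-marked peaks lay at an internal start of a coding transcript (123 peaks, 20.4%), at a non-coding transcript of a protein-coding gene (129 peaks, 21.4%), at a long non-coding RNA gene (49 peaks, 8.11%) or at a pseudogene, small RNA or other start (43 peaks, 7.12%). The corresponding shares without H3K4me1 were 6.69%, 4.48%, 2.51% and 2.60%. Nfatc2, Nfkb1 and Klf13 are examples of genes with a member far inside the gene, at 10470, 97355 and 13364 bp from the first TSS. Runx1, another RUNX family gene, had a member centred 871 bp upstream of an internal coding start and 127867 bp downstream of the first TSS.

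**Figure D1:**
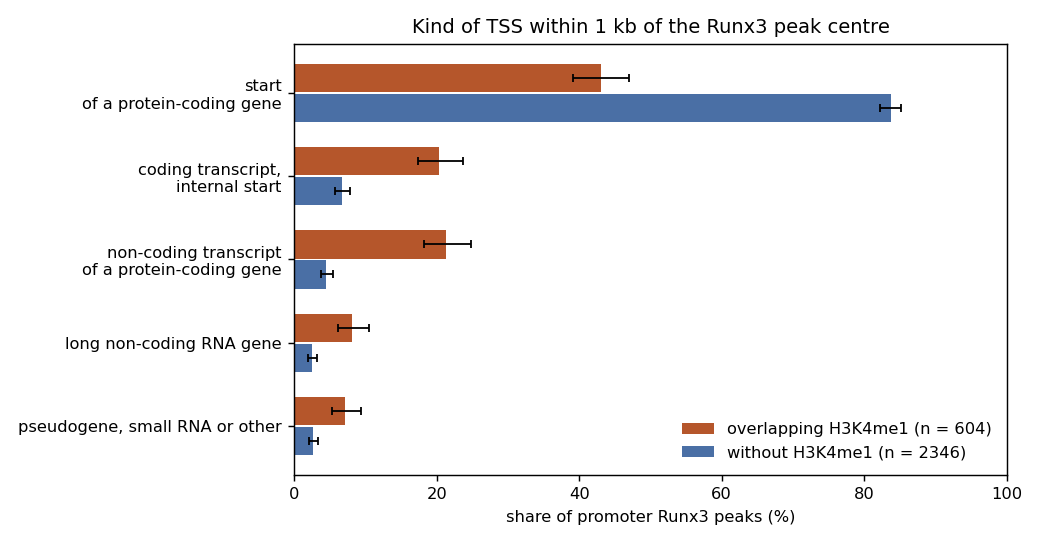
Share of promoter Runx3 peaks (%) by the kind of TSS within 1 kb of the centre, for 604 peaks overlapping H3K4me1 and 2346 peaks without it. Bars give the share and error bars the 95% Wilson interval. The start of a protein-coding gene accounts for 43.0% and 83.7%, and each of the other 4 kinds takes a larger share of the H3K4me1-marked peaks.

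H3K4me1 overlap varied with the kind of annotated TSS. Initiation of transcription was not measured, so promoter here means only a place near an annotated start. Of the promoter Runx3 peaks at the start of a protein-coding gene, 11.7% (10.4 to 13.1) overlapped H3K4me1, whereas the share was 43.9% at internal coding starts, 55.1% at non-coding transcripts of coding genes, 45.4% at long non-coding RNA genes and 41.3% at the remaining starts, beside 20.5% over all promoter peaks. The share also rose with distance, from 11.1% (9.54 to 12.8) for centres under 100 bp from the TSS, through 19.6% from 100 bp to under 250 bp and 29.6% from 250 bp to under 500 bp, to 43.3% (38.7 to 48.0) from 500 bp upwards. Peak width did not order the share in this way, and was 16.7% under 500 bp, 20.9% from 500 bp to under 750 bp, 18.3% from 750 bp to under 1000 bp and 24.0% at 1000 bp or more. Divergent starts, with the first TSSs of protein-coding genes on both strands within 1 kb, were found at 12 of the 604 peaks (1.99%) and at 300 of the 2346 without H3K4me1 (12.8%). Only the 260 and 1964 peaks at the start of a protein-coding gene could be counted as divergent, so the 2 shares differ in part through these numbers.

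Base composition set the H3K4me1-marked promoter peaks apart from both other sets. A peak was called CpG-rich when its central 500 bp had a GC content of at least 50% and at least 0.6 of the CpG dinucleotides predicted from its C and G content (CpG observed over expected). By this measure 141 of the 604 peaks were CpG-rich, 23.3% (20.1 to 26.9), against 76.7% (74.9 to 78.4) of the promoter peaks without H3K4me1 (odds ratio 0.0926, adjusted p 1.40e-128, Fisher's exact test). In the distal peaks with H3K4me1 the share was 1.21% (0.942 to 1.55), which gave an odds ratio of 24.9 and an adjusted p of 7.32e-94. The median CpG observed over expected was 0.306 in the H3K4me1-marked promoter peaks, 0.799 in those without the mark and 0.207 in the distal peaks. Their median GC content was 54.2%, 61.4% and 50%.

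**Figure D2:**
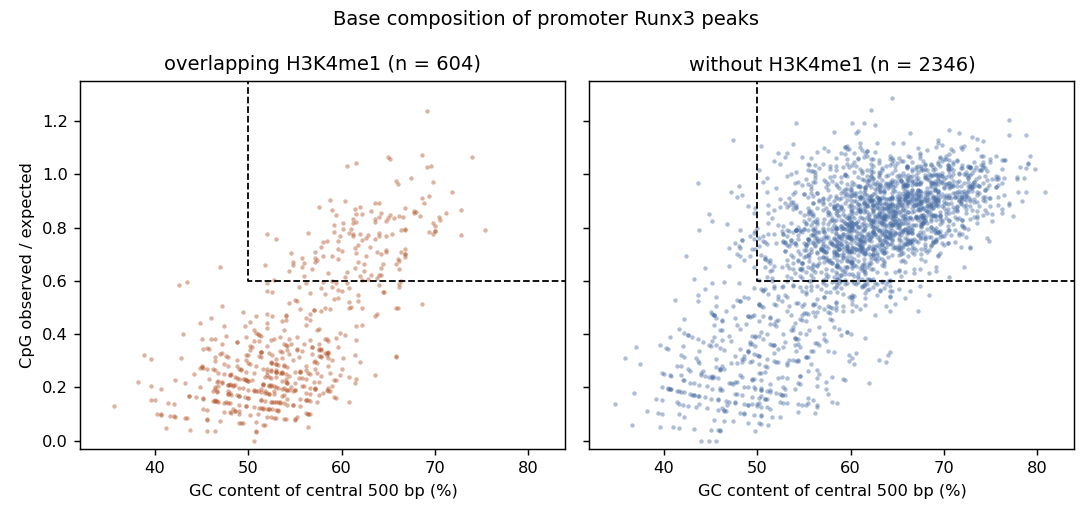
GC content of the central 500 bp (%, x axis) against CpG observed over expected (y axis) for each promoter Runx3 peak, in 2 panels: 604 peaks overlapping H3K4me1 and 2346 without. The dashed lines mark the CpG-rich class, which holds 23.3% of the points in the first panel and 76.7% in the second.

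Gene starts and CpG content varied together, but each still separated the peaks within the other. At starts of protein-coding genes, 113 of 1769 CpG-rich Runx3 peaks (6.39%, 5.34 to 7.62) and 147 of 455 CpG-poor ones (32.3%, 28.2 to 36.7) overlapped H3K4me1. At other TSSs the counts were 28 of 171 (16.4%, 11.6 to 22.6) and 316 of 555 (56.9%, 52.8 to 61.0). The gene starts remained less frequent among the H3K4me1-marked peaks when only CpG-rich peaks were compared (80.1% against 92.1%, odds ratio 0.348, adjusted p 8.91e-05) and when only CpG-poor peaks were compared (31.7% against 56.3%, odds ratio 0.361, adjusted p 2.24e-14, Fisher's exact test in both). When only starts of protein-coding genes were compared, 43.5% of the members and 84.3% of the peaks without the mark were CpG-rich (odds ratio 0.143, adjusted p 5.89e-43).

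The H3K4me1-marked promoter peaks had a median width of 756.5 bp, and the promoter peaks without the mark 758 bp. The overlap had a median of 394.5 bp (25th to 75th percentile 216.5 to 620.5) and covered a median of 51.3% of the Runx3 peak. It was under 50 bp in 35 peaks, and 94 peaks lay wholly inside H3K4me1. The peak centre itself was inside an H3K4me1 peak in 288 cases (47.7%). In the rest the mark covered a flank: the upstream side in 178 (29.5%), the downstream side in 93 (15.4%) and both sides in 45 (7.45%), read in the direction of transcription.

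The side was unequal at starts of protein-coding genes. There the mark lay on the upstream side of the Runx3 centre in 119 of 260 peaks (45.8%, 39.8 to 51.8), on the downstream side in 39 (15.0%, 11.2 to 19.8), on both sides in 6, and over the centre in 96 (36.9%). Among the 113 CpG-rich gene starts the upstream side made up 74 (65.5%, 56.3 to 73.6) and the downstream side 15 (13.3%), and among the 147 CpG-poor ones the counts were 45 and 24, with 75 centres (51.0%) inside the mark. At other TSSs 59 peaks had the mark upstream and 54 downstream, and 192 of 344 centres (55.8%) lay inside it. The Runx3 centres were spread about the gene start, with a median offset of -39.5 bp (25th to 75th percentile -278.5 to 229.5), and 142 of the 260 (54.6%) lay upstream of it. These values follow in part from the rule that chose the peaks and were not tested.

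Centred on the TSS, H3K4me1 covered the position 600 bp upstream in 61.9% of the 260 gene-start peaks and the TSS itself in 26.5%. The coverage was 26.9% at 500 bp and 27.3% at 1000 bp downstream. At gene starts the coverage thus fell towards the TSS and did not rise again downstream. At the 344 peaks of other TSSs it did not fall in this way, with 59.0% at 500 bp upstream, 59.0% at the TSS and 54.1% at 500 bp downstream. Where no H3K4me1 overlapped the Runx3 peak, CpG-rich promoters had 5.17% coverage at 1500 bp upstream, 0% at the TSS and 9.01% at 1400 bp downstream. These peaks were chosen for not overlapping H3K4me1 and are centred near the TSS, so coverage near 0% at the TSS follows from that choice. Of the promoter peaks without overlap, 13.4% had an H3K4me1 peak less than 500 bp away and 30.9% less than 2000 bp away.

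**Figure D3:**
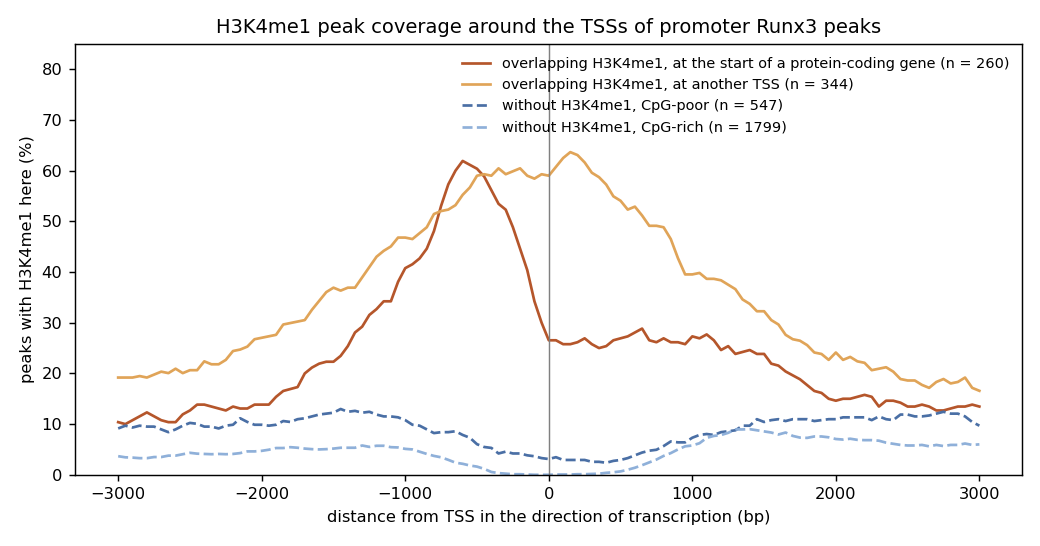
Share of promoter Runx3 peaks (%) with an H3K4me1 peak at each distance from the TSS (bp, in the direction of transcription). Lines are 260 overlapping peaks at starts of protein-coding genes, 344 at other TSSs, and 547 CpG-poor and 1799 CpG-rich peaks without overlap. At gene starts the line falls from 61.9% at 600 bp upstream to 26.5% at the TSS, while the line of other TSSs shows 59.0% there.

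RUNX motif variants differed between the 604 peaks and both other sets. Motifs were searched on both strands in the central 200 bp, so that wider peaks did not gain matches by their length. This window covers a smaller part of a wide peak. In all, 26 tests were made with 13 motifs against 2 sets (Fisher's exact test, two-sided, Benjamini-Hochberg over the 26). TGTGGT was found in 279 H3K4me1-marked promoter peaks, 46.2% (42.3 to 50.2), against 23.0% (21.3 to 24.7) without the mark (odds ratio 2.88, adjusted p 6.91e-27). TGTGGC was likewise more frequent, with 29.5% against 18.5% (odds ratio 1.84, adjusted p 2.96e-08). The CpG-containing variants were less frequent: TGCGGT was found in 16.6% against 21.9% (odds ratio 0.707, adjusted p 0.00602) and TGCGGC in 10.4% against 23.4% (odds ratio 0.381, adjusted p 8.08e-13). Any of the 4 variants was present in 76.0% (72.4 to 79.2) against 66.6% (64.7 to 68.5), an odds ratio of 1.59 (adjusted p 1.06e-05 over the 7 single comparisons). In the whole peak, 592 of the 604 peaks held a RUNX motif (98.0%, beside 96.0% of all Runx3 peaks), with a median of 3.

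The distal H3K4me1-marked peaks lay on the other side of the members for each variant. There TGTGGT was found in 58.7% (odds ratio of the promoter peaks against them 0.604, adjusted p 1.79e-08) and TGTGGC in 33.9% (0.813, adjusted p 0.0371). TGCGGT was found in 7.83% (2.34, adjusted p 2.09e-10) and TGCGGC in 4.0% (2.79, adjusted p 1.06e-09). The share with any variant was 78.1% (77.0 to 79.2), which was not separated from the 76.0% of the members (odds ratio 0.886, adjusted p 0.272).

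Motifs of other factor families showed the same placement between the sets in most cases. The ETS variant CGGAAG was found in 10.3% of the H3K4me1-marked promoter peaks, 30.5% of those without the mark (odds ratio 0.261, adjusted p 3.60e-26) and 6.10% of the distal peaks (1.76, adjusted p 4.67e-04). The variant AGGAAG, which shares its last 5 bases with CGGAAG, was found in 34.9%, 25.7% (1.56, adjusted p 2.01e-05) and 40.1% (0.801, adjusted p 0.0222). The GC box GGGCGG, which Sp/KLF zinc-finger proteins bind, was found in 18.2%, 45.9% (0.263, adjusted p 2.03e-36) and 5.85% (3.59, adjusted p 1.61e-21). The AP-1 motif TGACTCA, bound by Fos/Jun and BATF dimers, was found in 10.4%, 3.50% (3.22, adjusted p 4.49e-10) and 14.8% (0.670, adjusted p 0.00586). The T-box element AGGTGTGA, bound by T-bet and Eomes, was found in 2.65% (16 peaks), 0.554% (4.88, adjusted p 7.98e-05) and 2.66% (0.998, adjusted p 1).

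The remaining motifs differed little or in 1 comparison. CCAAT, the NF-Y box, was found in 18.4% of the members, 22.5% of the promoter peaks without H3K4me1 (adjusted p 0.0367) and 17.5% of the distal peaks (adjusted p 0.620). The STAT motif TTCNNNGAA was found in 4.80%, 4.60% (adjusted p 0.862) and 7.29% (adjusted p 0.0347), and the CRE TGACGTCA in 1.16%, 2.51% (adjusted p 0.0554) and 0.416% (adjusted p 0.0356). The E-box CACGTG passed in neither comparison, with 5.46%, 7.37% (adjusted p 0.127) and 4.30% (adjusted p 0.235). In all, 10 of the 13 motifs passed against each set, 5 higher and 5 lower. A match is a string of letters in the peak, and binding of these factors was not measured.

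**Figure D4:**
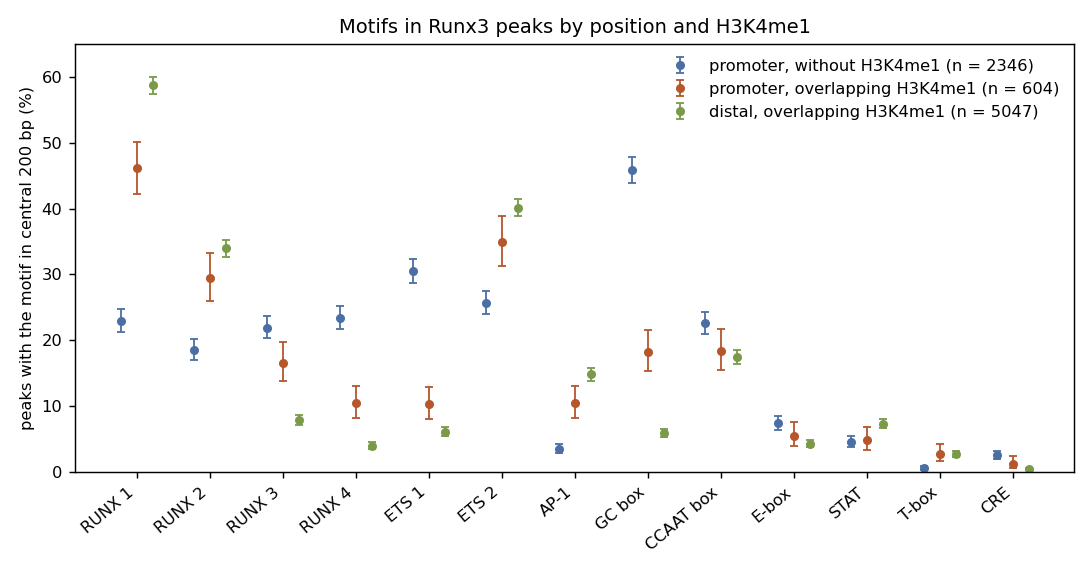
Share of Runx3 peaks (%) with each motif in the central 200 bp, as points with 95% Wilson intervals, for 2346 promoter peaks without H3K4me1, 604 promoter peaks overlapping it and 5047 distal peaks overlapping it. RUNX 1 to 4 and ETS 1 and 2 are the variants in the order given in the text. The H3K4me1-marked promoter peaks lie between the other sets for the RUNX, ETS, AP-1 and GC box motifs.

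Of the 10 calls against the distal peaks, 7 were lost when a longer overlap was required. With H3K4me1 over 50% of the peak or more in both sets, which left 314 members and 3370 distal peaks, the calls of TGTGGT (odds ratio 0.872, adjusted p 0.368) and CGGAAG (1.02, adjusted p 0.901) were lost, as were those of AP-1 (0.808, adjusted p 0.368), TGTGGC (0.828), AGGAAG (0.877), STAT (0.595) and CRE (1.79). With the centre inside the mark, in 288 members and 3006 distal peaks, these same motifs did not pass, with 0.868 for TGTGGT (adjusted p 0.355) and 1.08 for CGGAAG (adjusted p 0.796). TGCGGT (2.23 and 2.50), TGCGGC (2.16 and 2.48) and the GC box passed in both settings, the GC box with lower odds ratios of 1.63 (adjusted p 0.0489) and 1.83 (adjusted p 0.0179). Against promoter peaks without H3K4me1 the odds ratios of CGGAAG (0.147 and 0.152) and of the GC box (0.116 and 0.127) lay farther from 1 in these settings. With only first TSSs of protein-coding genes used, distal meant 1 kb or more from every such TSS. This left 260 members and 5391 distal peaks, and the 344 members at other TSSs counted as distal. The odds ratios against these distal peaks were 3.16 for CGGAAG, 6.49 for the GC box and 0.432 for AP-1. Against promoter peaks without the mark they were 0.397 for CGGAAG and 0.437 for the GC box, and all of these passed. At first TSSs the calls of TGCGGT (0.872, adjusted p 0.511) and CCAAT (0.834, adjusted p 0.392) against promoter peaks without the mark were lost. Both were also lost for centres under 500 bp from a TSS (0.824 and 0.757) and with TSSs of protein-coding transcripts (0.793 and 0.803). TGCGGT was further lost with the centre inside the mark (0.731), and CCAAT with 1 peak per nearest gene (0.794). Both passed in whole peaks, with 50% overlap or more and on autosomes.

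The calls also changed when CpG-rich and CpG-poor peaks were compared apart, in smaller sets. Among CpG-poor promoter peaks alone, TGTGGT was found in 53.8% of 463 members and 49.0% of 547 peaks without H3K4me1 (odds ratio 1.21, adjusted p 0.259), and TGCGGC in 6.05% and 6.40% (adjusted p 0.932). Among CpG-rich promoter peaks alone, TGTGGT was found in 21.3% of 141 members and 15.1% of 1799 peaks (odds ratio 1.52, adjusted p 0.383). In this class 0 of the 13 motifs passed in either comparison (Fisher's exact test, with 1 in each at an unadjusted p of 0.05 or less). The odds ratio against promoter peaks without the mark was 2.38 for AP-1 (adjusted p 0.383) and 3.68 for the T-box motif (adjusted p 0.702) among CpG-rich peaks, and 1.43 (adjusted p 0.214) and 2.81 (adjusted p 0.136) among CpG-poor ones. Against CpG-poor promoter peaks without H3K4me1, 2 motifs passed, CGGAAG (5.18% against 11.7%, adjusted p 0.00386) and the GC box (8.64% against 14.6%, adjusted p 0.0271). Against CpG-poor distal peaks 2 passed, TGCGGT (14.0% against 7.52%, adjusted p 1.67e-04) and the GC box (8.64% against 5.29%, adjusted p 0.0271). When only starts of protein-coding genes were compared instead, TGTGGT was found in 41.2% of 260 members and 19.7% of 1964 peaks without the mark (odds ratio 2.85, adjusted p 3.65e-12). Among the members themselves, TGTGGT was found in 57.8% (49.7 to 65.5) of the 147 at CpG-poor gene starts and 19.5% (13.2 to 27.7) of the 113 at CpG-rich gene starts.

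All 6-mers, each taken as 1 word with its reverse complement, were compared in the same way, with adjustment over the 6-mers of a comparison. Against promoter peaks without H3K4me1, 482 were more frequent in the members (23.2% of those tested) and 405 less frequent (19.5%). The higher ones with the smallest p were ACCACA (46.2% against 23.0%), which is TGTGGT read on the other strand, then CCACAG (47.5% against 26%), then AACCAC (34.8% against 17.2%), then CACAGA (28.8% against 13.9%) and then ACACAG (23.8% against 10.8%). The first 3 of these overlap the RUNX motif. The lower ones were CGCCGC (9.60% against 35.6%, odds ratio 0.192, adjusted p 1.22e-37), then CCGCCC (18.2% against 45.9%), then CCCGCC (18.4% against 44.7%), then CCGCCG (9.11% against 30.9%) and then GCCCGC (10.8% against 33.4%), and each holds a CpG. Against distal peaks, 340 6-mers were more frequent (16.3%) and 157 less frequent (7.55%). The former were led by CCCCGC (18.2% against 4.38%), followed by CCGCGC (10.4% against 1.25%), by CCCGCC (18.4% against 5.03%), by CCGCCG (9.11% against 1.15%) and by CGCGGC (9.44% against 1.27%). The latter were led by ACCACA (46.2% against 58.7%), followed by ACTCAT (5.13% against 12.4%), by ACCACT (12.4% against 21.5%), by ACAATG (4.47% against 10.1%) and by AAATGA (7.62% against 14.2%). Among CpG-rich peaks alone 0 6-mers passed by Fisher's exact test against promoter peaks without the mark and 0 against distal peaks, where 105 and 59 had an unadjusted p of 0.05 or less. Among CpG-poor peaks alone 0 passed against promoter peaks without the mark, with 215 at an unadjusted p of 0.05 or less, and 45 against distal peaks.

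Another Runx3 peak was centred within 5 kb of 154 members, 25.5% (22.2 to 29.1). The share was 14.0% (12.7 to 15.5) in promoter peaks without H3K4me1 (odds ratio 2.10, adjusted p 1.69e-10) and 27.5% (26.3 to 28.8) in distal peaks with it (odds ratio 0.902, adjusted p 0.310, Fisher's exact test). Among CpG-poor promoter peaks alone the first difference did not pass (27.2% against 22.7%, adjusted p 0.269), and among CpG-rich ones it did (19.9% against 11.4%, adjusted p 0.0116). With 1 peak kept per nearest gene, the shares were 22.5% in members and 17.8% in distal peaks (odds ratio 1.34, adjusted p 0.0121, Fisher's exact test). This filter kept 556 of the 604 members but 2917 of the 5047 distal peaks, and neighbours were still counted in the full list. It removes peaks that share a nearest gene, often neighbours of each other, so this comparison cannot show an excess in the members.

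A member lay within 1 kb of a TSS of 509 protein-coding genes, 2.28% of the 22350 annotated, and of 17.2% of the 2962 such genes that had any promoter Runx3 peak. Of the 509 genes, 485 had 1 member, 21 had 2 and 3 had 3. The gene lists that follow were compiled from known functions, with earlier results of these data known. Their counts are set beside these 2 shares as a description only, and the shares of short lists rest on few genes.

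Among 32 NK cell receptor genes, 11 had a promoter Runx3 peak and 4 a member. Cd244 (2B4, a SLAM family receptor) had the second widest member, 2203 bp, centred 97 bp downstream of its first TSS and wholly inside an H3K4me1 peak of 2582 bp, with 4 RUNX motifs. Klra1, an Ly49 receptor, had 490 of 686 bp under the mark, centred 198 bp upstream of its TSS. At Lag3, an inhibitory receptor, the overlap was 305 bp and the centre lay 442 bp upstream of a non-coding transcript start. Tigit, another inhibitory receptor, had 7 RUNX motifs and an overlap of 149 of 964 bp on the upstream side. The receptor genes Ncr1, Klrb1c, Klrk1, Klra5, Fcgr3, Cd96 and Crtam had promoter Runx3 peaks without H3K4me1 only.

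Among 26 genes of cytotoxic effectors and granule release, 13 had a promoter Runx3 peak and 2 a member. The Gzmb peak (granzyme B, a protease that triggers death of the target cell) was centred 31 bp upstream of the TSS and met the mark over 132 of 1285 bp on the upstream side. Serpinb9, which encodes an inhibitor of granzyme B, had 219 of 536 bp under the mark, with the centre 541 bp downstream of the TSS. Prf1, Fasl, Nkg7, Srgn, Gzmc, Gzmd, Gzme, Unc13d, Rab27a, Serpinb6b and Crtam were bound at promoters without it.

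Of 20 cytokine and chemokine genes, 8 had a promoter Runx3 peak and 4 a member. At Tnfsf14 (LIGHT, a TNF family ligand) all 672 bp lay inside the mark. The neighbouring chemokine genes Ccl3 and Ccl4 had members centred 49 and 217 bp upstream of their TSSs, with overlaps of 451 and 550 bp, and Xcl1 (lymphotactin) had 311 bp with the centre 245 bp upstream. The promoter peaks of Ifng, Csf2, Tgfb1 and Il16 had none.

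Among 38 genes of cytokine receptors and JAK-STAT signalling, 13 had a promoter Runx3 peak and 4 a member. Ifngr2, a chain of the interferon-gamma receptor, had 10 RUNX motifs, an overlap of 1009 of 1202 bp and a centre 739 bp upstream of the TSS. The Il21r peak (IL-21 receptor) lay wholly inside the mark over its whole length. Socs1 and Cish, feedback inhibitors of cytokine signalling, had CpG-rich members that met the mark on the upstream side over 285 of 1913 bp and 120 of 1115 bp. Il2rb, Il12rb2, Il18r1, Ifngr1, Tgfbr1, Jak1, Stat2, Stat3 and Pim1 were bound at promoters without the mark.

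Of 70 lymphoid transcription factor genes, 24 had a promoter Runx3 peak and 8 a member. Nfatc2, a calcium-regulated factor, had an overlap of 763 bp at an internal start, and Bach2, a repressor, 728 bp with a centre 753 bp downstream of a non-coding transcript start. Nfkb1, the p50/p105 NF-kappaB gene, had 2 members, of which the longer overlap was 723 of 1363 bp on both sides of the centre. Tox2, a factor of NK cell maturation, had 625 of 656 bp under the mark and a centre 509 bp downstream of its TSS. Runx1, Runx3, Klf2 and Klf13 also had members. Those at Runx3 and Klf2 lay 288 and 85 bp upstream of the first TSS with the mark on the upstream side.

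Of 48 genes of antigen receptor and ITAM signalling, 18 had a promoter Runx3 peak and 6 a member. Lck, a Src family kinase, had 858 of 1033 bp under H3K4me1 on both sides of the centre, with the TSS in the gap between the marked regions. Cd7, a surface receptor of T cells and NKC, had all 516 bp inside the mark, 320 bp upstream of its TSS. The kinase gene Prkch (protein kinase C eta) had 273 of 589 bp under the mark, and Inpp5d, which encodes the phosphatase SHIP1, 215 of 781 bp. Lat and Txk were the others. Of 35 genes of adhesion and migration, 9 had a promoter Runx3 peak and 3 a member: Itgb7, the integrin beta 7 gene, with 740 of 843 bp, Selplg, which encodes the ligand of P-selectin, with 734 of 1117 bp, and Icam2 with 286 of 643 bp under the mark. Of 29 genes of TNF receptors and survival, 12 had a promoter Runx3 peak and 3 a member: the costimulatory receptor gene Tnfrsf9 (4-1BB) and the adaptor genes Traf1 and Traf2. Traf1 had 692 of 1180 bp under the mark, Traf2 593 of 595 bp and Tnfrsf9 178 of 1632 bp, each at an internal start.

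**Figure D5:**
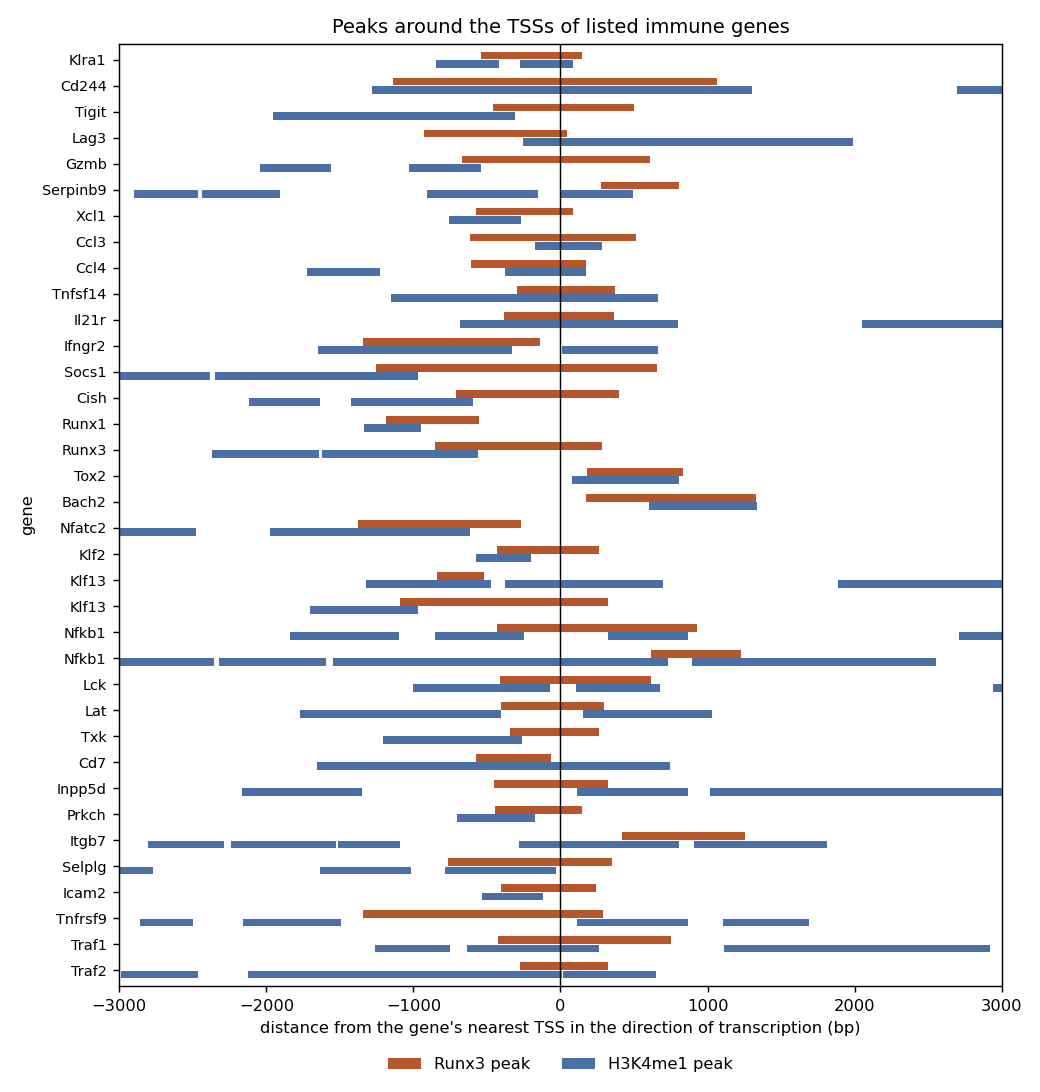
Positions of the member Runx3 peak (upper bar) and of all H3K4me1 peaks (lower bars) within 3000 bp of the nearest TSS of 34 listed immune genes, 1 line for each of their 36 members, in the order of the lists. The x axis is the distance from the TSS in bp, in the direction of transcription, and bars are clipped at its ends. Cd244, Tnfsf14, Il21r and Cd7 lie wholly inside H3K4me1, whereas Gzmb, Socs1 and Txk meet it at the upstream edge.

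The share of promoter-bound genes that had a member was 36.4% for NK cell receptors, 15.4% for cytotoxic effectors, 50% for cytokines and chemokines, 30.8% for cytokine receptors and JAK-STAT, 33.3% for transcription factors, 33.3% for antigen receptor and ITAM signalling, 33.3% for adhesion and 25% for TNF receptors and survival, beside 17.2% over all protein-coding genes. In 2 lists of broadly expressed genes it was lower. Of 51 ribosomal protein genes 20 had a promoter Runx3 peak and 1, Rps10, a member. Of 50 genes of general transcription, splicing and replication 19 had a promoter Runx3 peak and 0 a member. Among markers of other cells, 0 of 12 B cell genes and 0 of 20 genes of other lineages had any promoter Runx3 peak. Over all protein-coding genes, 2962 of 22350 had one, so counts this low in lists this short do not show an absence. Of 15 myeloid genes 1 had a promoter peak, Cd68, and it was a member. A list of bound regions does not measure expression, so it cannot itself tell whether other cells contributed. The paper reports that nearly all cells carried NKp46 at the end of culture.

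The widest members lay at 2400003C14Rik (2245 bp, CpG-rich, 180 bp under the mark), Cd244, the long non-coding RNA gene Gm16046 (2096 bp), Cyfip2, an actin regulator of the WAVE complex (2067 bp, 225 bp under the mark), and Metrnl, which encodes a secreted factor (2032 bp, 165 bp under the mark). Most RUNX motifs were counted at Dpf1, a chromatin-remodelling subunit gene, with 17, of which 10 were TGTGGT. Cyfip2 followed with 13, then Foxb2, a forkhead factor gene, with 12, and Gm16046 and Susd1 with 11 each. The 12 at Foxb2, a CpG-rich peak, included 8 TGCGGC. Wider peaks hold more motifs, so these counts are not densities.

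The genes with 3 members were Sema4d, Sgsh and Slc39a14. Sema4d encodes the semaphorin CD100, and its members had overlaps of 757, 781 and 427 bp, all at internal or non-coding transcript starts. At Sgsh, a lysosomal sulfatase gene, the centres of the 3 members lay inside H3K4me1, 1 of them in a peak of 3226 bp and the others in a shared peak of 2698 bp. At Slc39a14, a zinc and iron transporter gene, a pair of members had centres only 731 bp apart. At the limits of the rule, the members farthest from a TSS lay 997 bp (Gm16104) and 995 bp (Tbc1d1) away, and the nearest peaks past the limit 1004 bp (Lrig1) and 1008 bp (Tex261). The shortest overlaps were 5 bp at Taf5l and 7 bp at Triobp, and at Pak6 and Gm15409 the nearest H3K4me1 peak was 1 bp away. No member lay on chromosome X (0 of 17 promoter Runx3 peaks there, beside 20.5% over all promoter peaks). Both lists held few peaks on that chromosome, 60 of the 11676 Runx3 peaks and 51 of the 34204 H3K4me1 peaks.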

How the data were processed

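ChIP-seq peak lists of IL-2-activated NKC were used. The authors aligned 40 bp reads to mm9 with ELAND and called peaks against NIS with MACS on joined reads of the repeats. The deposited values are peak starts and ends in bp, with no score and no values per library. Starts, counted from 0 in the files, are given from 1. GENCODE M1, which is on that build, gave the TSSs and genes. Members and lists were chosen with earlier results of these data known.

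Distance was taken from the peak centre, and overlap needed 1 bp. Motifs were present or absent in the central 200 bp. Shares were compared by Fisher's exact test, two-sided, called at an adjusted p of 0.05. The motif steps were tested on simulated data. The 12 alternatives concerned overlap, TSS set, distance, window, CpG class, neighbours, chromosomes and 1 peak per gene. For another TSS set, distal meant 1 kb or more from every TSS of that set. Named were up to 4 genes per list with the longest overlap, the other listed genes with a member, the 5 widest members, the 5 with most RUNX motifs, genes with 3 members, peaks nearest each limit, and the 5 6-mers of smallest p per direction. The listed genes bound without H3K4me1, and positions given for Runx1, Runx3, Klf2, Klf13 and the members in the text on TSS classes, were added after the values were seen. The motif count at Runx3 was added likewise. Of the listed genes, 2 were not matched to the annotation used and are not analysed here. Some further genes of the lists are not reported here and were left out of the lists' counts. RefSeq promoters, on another build, were not used. Python 3.11.15, scipy 1.17.1, pandas 2.3.3, pysam 0.24.0 and samtools 1.23.1 were used.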

Additional observations from a re-analysis of the deposited data

How the results depend on the processing

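No paired analysis was possible because the reads of the Runx3 libraries were joined before peaks were called, and leaving out a replicate could not be run for the same reason. The lower share of CpG-rich peaks and of gene starts than in promoter peaks without H3K4me1 kept its direction and passed under each alternative run. The counts of motifs and 6-mers fell when CpG-rich and CpG-poor peaks were compared apart, in sets of fewer peaks, and how much of the fall came from CpG content was not tested. Within CpG-rich peaks 0 motifs and 0 6-mers passed in both comparisons. Within CpG-poor peaks 2 motifs passed in each, with 0 6-mers against promoter peaks without the mark and 45 against distal peaks. The CpG-rich class holds few members (141) and few distal peaks (61), which limits what could pass. A value for the T-box motif against CpG-rich distal peaks could not be had, since 0 of these held it.

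Against promoter peaks without H3K4me1, 6-mers passing numbered 1430 in whole peaks, 586 with TSSs of protein-coding transcripts and 285 with first TSSs. Against distal peaks they numbered 1067 in whole peaks, 45 with H3K4me1 over 50% or more of the peak and 57 with the centre inside it, and 3 motifs passed in each of the last 2 settings. The cause was not tested. Against promoter peaks without the mark, any RUNX motif did not pass within CpG-rich (odds ratio 1.20, adjusted p 0.452) or CpG-poor peaks (1.20, 0.388), nor did a neighbouring peak within CpG-poor peaks (1.28, 0.269). Against distal peaks, a neighbour had an odds ratio of 0.767 (adjusted p 0.0343) for centres under 500 bp from a TSS. It turned to 1.34 with 1 peak per gene (adjusted p 0.0121), 1.03 with 50% overlap or more and 1.01 with the centre inside. The value with 1 peak per gene cannot be read as an excess, since that filter removes peaks that share a gene. Any RUNX motif turned to 1.77 in whole peaks, 1.04 with 50% overlap or more, 1.19 with the centre inside and 1.01 within CpG-poor peaks, none of which passed.

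The other odds ratios that changed direction were of motifs that did not pass there. Against promoter peaks without the mark, STAT had 0.895 (50% overlap or more), 0.823 (centre inside), 0.984 (under 500 bp), 0.956 (protein-coding transcripts), 0.989 (1 peak per gene) and 0.595 (CpG-poor), and in CpG-rich peaks CCAAT had 1.09, CRE 1.34 and TGCGGT 1.06. Against distal peaks, CCAAT had 0.898 (whole peak), 0.789 (50% overlap or more), 0.797 (centre inside) and 0.930 (CpG-poor), and the T-box motif 1.33, 1.32, 1.02 (protein-coding transcripts), 1.00 (autosomes) and 1.13 (CpG-poor). CRE had 0.767 with first TSSs and CGGAAG 0.854 in CpG-poor peaks. In CpG-rich peaks the GC box had 0.954, TGCGGC 0.629, TGCGGT 0.677, TGTGGC 1.01, TGTGGT 1.23, STAT 2.21 and the E-box 0.855.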
